A study of Mus musculus with 8 samples.

Results

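The complement genes described here are 9 of the 32285 genes in the single-nucleus count table: the 3 chains of C1q (C1qa, C1qb and C1qc), C3, C4b, Masp1, Serping1, C3ar1 and C5ar1. They were chosen by name, all 9 have a row in the table, and their level was followed in each cell class, in each microglial subpopulation and in each genotype. The data came from 8 single-nucleus RNA-seq libraries of brain hemispheres, without cerebellum and olfactory bulb, from C57BL6/J mice aged 6 months, with 2 libraries for each of 4 genotypes. The genotypes were WT, Cnp-/- (loss of CNP, an enzyme of the non-compact myelin made by oligodendrocytes, in all cells of the animal), 5xFAD (a transgenic amyloid model, driven in neurons by the Thy1 promoter, that forms plaques) and Cnp-/- 5xFAD, which carries both. The comparisons asked which cells are the source of each complement transcript, and how its level differed with Cnp loss and with 5xFAD.

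Complement is a proteolytic cascade of plasma and tissue. C1q binds a surface and starts the classical pathway, which cleaves C4 and then C3. The lectin pathway reaches the same step through MASP proteases, and Serping1, the C1 inhibitor, blocks the initiating proteases of both pathways. C3 is the point where the pathways meet, and C3ar1 and C5ar1 are the receptors of the small fragments released from C3 and C5. In brain, microglia are the known main source of C1q, whereas C4 and C3 are known from glia that react to injury.

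The table held 61949 nuclei, 6801 to 8824 per library, with 68905044 to 82399061 unique molecular identifiers (UMIs, one per captured transcript) per library. The deposited annotation gave 8 classes, of which neurons (45141 nuclei) were by far the most numerous, followed by mature oligodendrocytes (MOL, 5612), astrocytes (4810), microglia (2472), endothelial cells (1667), oligodendrocyte precursors (OPC, 1522), newly formed oligodendrocytes (NFOL, 465) and pericytes (260). The microglia were annotated further as homeostatic (982 nuclei), amyloid-DAM (586), MyTE (270), myelin-DAM (248) and macrophages (205), DAM standing for disease-associated microglia. Each class was highest for the summed level of its own defining markers. In MOL, Cnp itself lay at 219 to 321 CPM (UMIs of a gene scaled to the total of the summed nuclei) in the 4 libraries with intact Cnp and at 23.1 to 32.8 CPM in the 4 labelled Cnp-/-. Within NFOL, however, the MOL markers (median 3781 CPM) exceeded the NFOL markers (2385 CPM), and the astrocyte markers stood at 1752 CPM. Cell barcodes present in more than 1 library numbered 454. Levels are given as CPM of the nuclei of a class summed per library, and since the libraries read 3′ ends they are compared between classes and genotypes, not between genes. Each library pooled a pair of animals, per the reporting summary, although the methods state pooling for another dataset only, so that the p-values measure the spread between libraries and not between single animals.

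All 9 genes lie on the minus strand of the mouse genome (GRCm38) as protein-coding genes. The C1q chains are neighbours on chromosome 4, with C1qb at chr4:136880129-136886187, C1qc at chr4:136889804-136893065 and C1qa at chr4:136895917-136898803. C4b (chr17:34728380-34743882) and C3 (chr17:57203970-57228136) share chromosome 17. Masp1 lies at chr16:23449417-23520815, Serping1 at chr2:84765387-84775444, C3ar1 at chr6:122847138-122856161 and C5ar1 at chr7:16246743-16259540. Promoter sequence was matched for 5 of the 9 genes in a RefSeq table (GRCm38.p6). Shown are 200 bases of the coding strand, from 210 to 11 bases before the annotated start, of C1qb and C3ar1, whose level was highest in microglia, and of C3, which was close to undetected in all classes. Capitals mark GAGGAA, a purine-rich motif of the kind bound by the myeloid factor PU.1.
C1qb (chr4:136886211-136886410): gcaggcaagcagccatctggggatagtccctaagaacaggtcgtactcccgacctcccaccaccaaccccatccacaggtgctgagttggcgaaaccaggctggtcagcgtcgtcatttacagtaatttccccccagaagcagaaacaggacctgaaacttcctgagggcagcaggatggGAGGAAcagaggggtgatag
C3ar1 (chr6:122856168-122856367): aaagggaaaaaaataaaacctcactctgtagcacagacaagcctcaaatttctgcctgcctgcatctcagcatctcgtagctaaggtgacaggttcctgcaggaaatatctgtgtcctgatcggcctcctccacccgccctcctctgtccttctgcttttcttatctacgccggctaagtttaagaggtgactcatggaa
C3 (chr17:57228147-57228346): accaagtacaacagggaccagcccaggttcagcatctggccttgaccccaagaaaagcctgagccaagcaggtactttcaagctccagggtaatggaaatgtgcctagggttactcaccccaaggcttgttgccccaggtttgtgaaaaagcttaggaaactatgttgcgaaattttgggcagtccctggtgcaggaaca
GAGGAA, searched on both strands, occurred in 1 place in the C1qb window and in neither of the other windows. Among 32851 windows of the same length, 18.9% held it. The match is a description of letters and not of binding.

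The members fell into different source cells. Over all nuclei, C1qa, C1qb and C1qc were highest in microglia, with pooled levels of 188, 221 and 212 CPM, against 14.4, 14.4 and 11.7 CPM in NFOL, 8.37, 9.65 and 7.32 CPM in endothelial cells and 0, 19.9 and 12.4 CPM in pericytes. C3ar1 (66.1 CPM) and C5ar1 (43.2 CPM) were likewise highest in microglia. C4b, the mouse C4 of the classical pathway, was highest in MOL (193 CPM) and astrocytes (138 CPM), lower in NFOL (52.2 CPM), microglia (48.4 CPM) and OPC (18.0 CPM), and lowest in neurons (2.55 CPM). Masp1, the protease of the lectin pathway, was spread over OPC (45.5 CPM), NFOL (34.0 CPM), microglia (33.8 CPM), MOL (33.5 CPM) and astrocytes (32.6 CPM), with 82.4 CPM in amyloid-DAM. Serping1 was low everywhere and highest in pericytes (22.4 CPM, from 9 UMIs in 260 nuclei). C3 had 38 UMIs in the whole table. These pooled orders describe classes that were themselves found from the same counts, so they are given with no test between classes.

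**Figure D1:**
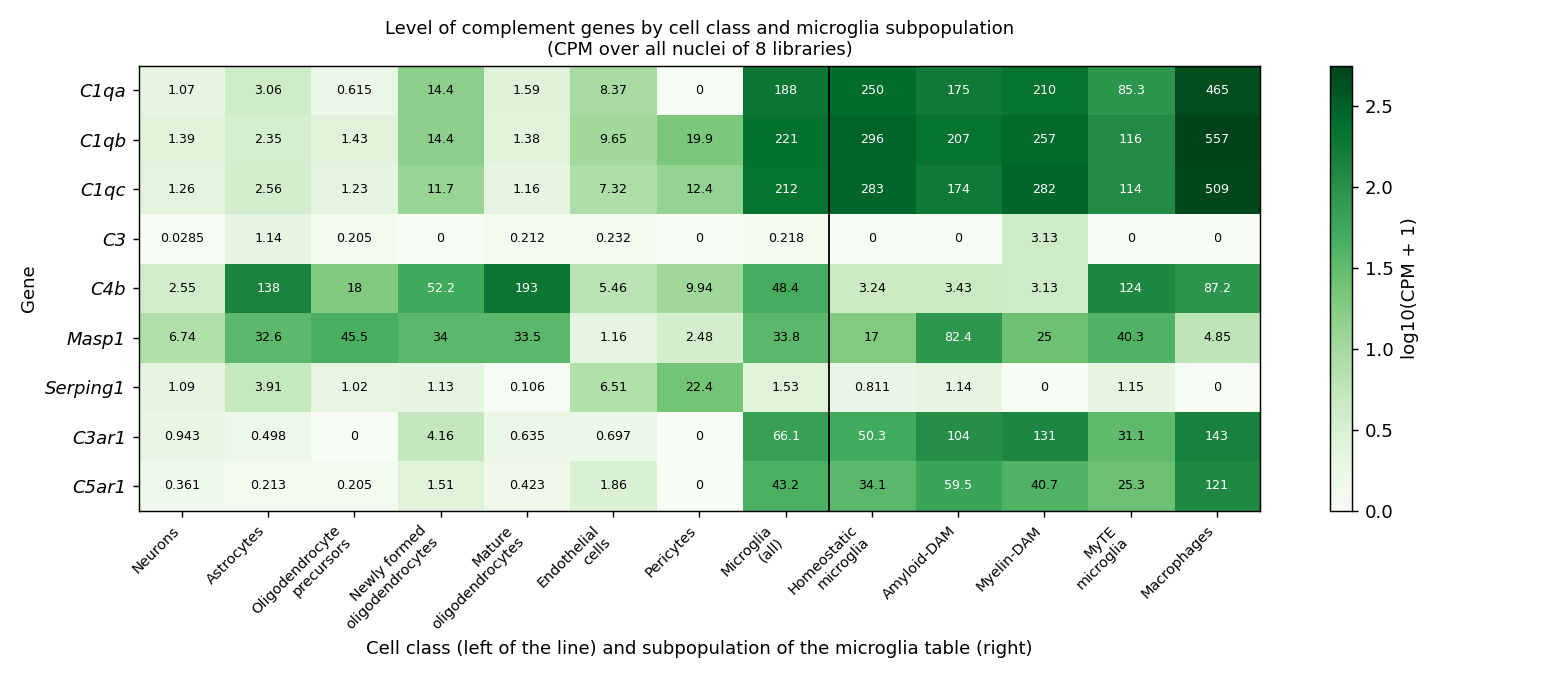
Heatmap of the pooled level of each complement gene (rows) in each cell class and microglial subpopulation (columns) over all 8 libraries, with CPM printed in the cells and colour on a log10(CPM + 1) scale. Left of the line the C1q chains, C3ar1 and C5ar1 are highest in microglia and C4b in MOL and astrocytes, while C3 stays at or under 1.14 CPM.

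In the fit across all genes of a class, 8 of the 9 genes passed the filter on low counts in at least 1 of 7 classes, giving 28 gene-by-class tests (C4b and Masp1 in 6 classes each, C1qa in 4, C1qb and C1qc in 3 each, C3ar1, C5ar1 and Serping1 in 2 each). C3 passed it in none. With Cnp loss, taken as the mean over both 5xFAD backgrounds, 2 of the 28 passed an adjusted p of 0.05 in the quasi-likelihood test of edgeR, C4b and Masp1 in MOL, and both were higher. Of the 8761 genes tested in MOL, 0.765% were called with Cnp loss and 0.445% were called higher. In the other classes the share called in either direction was 1.6% in NFOL, 1.59% in microglia, 0.0425% in endothelial cells, 0.0185% in neurons (0.00463% higher and 0.0139% lower) and 0% in astrocytes and OPC. Over the 28 tests 15 estimates were positive and 13 negative, with a median log2 fold change of 0.23, and 7 had an unadjusted p under 0.05, against 8.7% of all gene-by-class tests. With 5xFAD none of the 28 was called by edgeR (smallest adjusted p = 0.257), 8 had an unadjusted p under 0.05 (7.29% of all tests did), and DESeq2 called 2, C4b in MOL and C1qa in neurons. The background of edgeR calls with 5xFAD was 0.391% of genes in microglia and 0% in the other 6 classes, and DESeq2 called 0.137% of genes in MOL and 2.34% in neurons. For the interaction of Cnp loss and 5xFAD, edgeR called none, 5 had an unadjusted p under 0.05 (4.97% of all tests did) and DESeq2 called 1, C4b in MOL. The edgeR background was 0.0489% in microglia and 0% elsewhere, and DESeq2 called 0.126% of genes in MOL.

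C4b in mature oligodendrocytes was higher with Cnp loss, a call that held in 12 of 12 alternatives. Its level in MOL was 15.5 and 16.9 CPM in the WT libraries, 170 and 112 CPM in 5xFAD, 290.0 and 300.0 CPM in Cnp-/-, and 305 and 297 CPM in Cnp-/- 5xFAD. Every library with Cnp loss lay above every library with intact Cnp, and both 5xFAD libraries lay above both WT libraries. How many of the genes tested in MOL separate like this was not computed. With Cnp loss C4b rose by a log2 fold change of 2.70 (SE 0.18, Benjamini-Hochberg adjusted p = 0.0029 in the quasi-likelihood test of edgeR), in 4 of 4 libraries. In the comparison of single genotypes, which was added after the data were seen, Cnp-/- exceeded WT by 4.26 on the log2 scale (SE 0.28, adjusted p = 0.0030 in edgeR), where 0.0457% of genes were called and 0.0228% were called higher. That call rests on both WT libraries, the adjusted p being 0.101 without WT replicate 1 and 0.0722 without WT replicate 2. 5xFAD exceeded WT by 3.10 (SE 0.28, edgeR adjusted p = 0.0484), and C4b was the 1 gene called in that comparison (0.0114% of those tested). This call held in 4 of 12 alternatives.

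On the Cnp-/- background the C4b levels of MOL with and without 5xFAD overlapped. Cnp-/- 5xFAD differed from Cnp-/- by a log2 fold change of −0.01 (SE 0.22, edgeR adjusted p = 1) and from 5xFAD by 1.15 (SE 0.23, edgeR adjusted p = 0.261). The interaction was −3.11 (SE 0.36, unadjusted p = 3.18e-05 in edgeR's quasi-likelihood fit), and its adjusted p was 0.279 in edgeR, 8.0e-10 in DESeq2 and 2.1e-11 in edgeR without the filter on low counts, so that the call depends on the filter and the tool. The mean effect of 5xFAD over both Cnp backgrounds was 1.55 (SE 0.18), with an adjusted p of 0.289 in edgeR and 3.1e-10 in DESeq2.

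The share of MOL nuclei with a C4b UMI followed the same order. It was 3.07 ± 0.43% (SD, n = 2 libraries) in WT, 14.9 ± 4.89% in 5xFAD, 27.5 ± 1.52% in Cnp-/- and 30.2 ± 1.45% in Cnp-/- 5xFAD. After thinning every nucleus to 500 UMIs, the shares were 0.948 ± 0.0146%, 6.14 ± 2.18%, 13.5 ± 1.05% and 14.0 ± 0.327%. No nucleus was left out, since all held more than 500 UMIs. Endothelial cells, taken as background, gave 1.92% unthinned and 0.330% thinned, at a median of 3598 UMIs against 1515 in MOL. Positive nuclei also held more C4b, with 1 to 1.07 UMIs per positive nucleus in the WT libraries and 1.43 to 1.79 in the others. Markers of other cell types in MOL overlapped between libraries with and without Cnp. The summed astrocyte markers were 233 to 345 CPM with intact Cnp and 206 to 250 CPM with Cnp loss, the microglial markers 1.06 to 31.1 and 8.54 to 27.4 CPM, and the OPC markers 0.863 to 32.5 and 2.44 to 6.09 CPM. C4a, the close paralogue of C4b, had 9 UMIs in MOL, and 18.9% of 90-base windows of the C4b transcript are identical in C4a, so that some reads may not be separable.

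**Figure D2:**
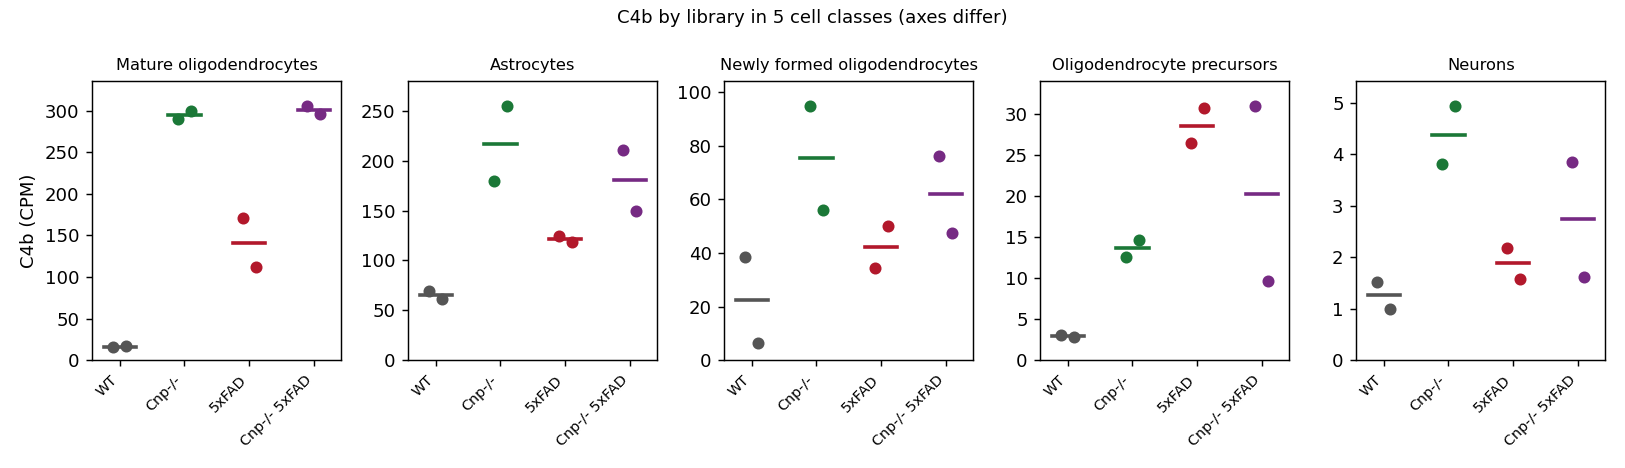
C4b level (CPM, linear axes that differ between panels) in MOL, astrocytes, NFOL, OPC and neurons, with a point for each library and a line at the mean of each genotype. In MOL the 2 WT libraries lie at 15.5 and 16.9 CPM and the 4 libraries with Cnp loss between 290.0 and 305 CPM.

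WT astrocytes held more C4b than WT MOL, and the estimate with Cnp loss was smaller than in MOL. The WT libraries held 69.5 and 61.1 CPM, 5xFAD 125 and 118 CPM, Cnp-/- 180 and 255 CPM, and Cnp-/- 5xFAD 211 and 150 CPM. The 4 libraries with Cnp loss all lay above the 4 with intact Cnp. The share of all astrocyte genes that separate in this way was not computed. The log2 fold change with Cnp loss was 1.15 (SE 0.16), with an unadjusted p of 0.000156 and an adjusted p of 0.72 in edgeR's quasi-likelihood test, against 6.5e-05 in DESeq2 and 1.7e-13 in edgeR without the filter, so that the call again depends on both. These settings called 0.0593% and 1.57% of astrocyte genes. The estimate for 5xFAD, a mean over both Cnp backgrounds, was 0.29 (SE 0.16, edgeR adjusted p = 0.974). The interaction was not called in the main fit. Without the filter on low counts edgeR called it (−1.07, SE 0.273, adjusted p = 0.00857), where it called 1.71% of genes. The MOL markers in astrocytes ranged from 57.4 to 170 CPM with intact Cnp and from 75.7 to 242 CPM with Cnp loss, and their part in the C4b values was not tested. C4b was detected in 13.6 ± 3.82% of WT astrocytes (SD, n = 2 libraries) and in 30.8 ± 6.98% of Cnp-/- astrocytes.

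The balance between both classes was compared within each library. The log2 ratio of C4b in MOL to C4b in astrocytes was −2.09 and −1.79 in WT, 0.45 and −0.08 in 5xFAD, 0.69 and 0.24 in Cnp-/-, and 0.53 and 0.98 in Cnp-/- 5xFAD. WT astrocytes exceeded WT MOL, and this order was absent in all 4 libraries with Cnp loss. The ratio was higher by 1.49 with Cnp loss (two-sided exact permutation test over libraries, p = 0.0571, adjusted over 2 comparisons 0.114) and by 1.21 with 5xFAD (exact permutation p = 0.229), a comparison chosen after the values were seen. MOL supplied 5.45 to 44.9% of a library's C4b UMIs. Fewer nuclei of a class and less RNA per nucleus cannot be told apart in such shares.

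NFOL and OPC held less C4b than MOL in the pooled counts, though NFOL of WT replicate 1 exceeded its MOL. In NFOL the levels were 38.5 and 6.56 CPM in WT, 34.2 and 50.0 CPM in 5xFAD, 94.6 and 56.0 CPM in Cnp-/- and 76.3 and 47.5 CPM in Cnp-/- 5xFAD. These ranges overlapped, and the log2 fold change with Cnp loss was 1.09 (SE 0.35, edgeR adjusted p = 0.144). The MOL markers in NFOL lay at 1372 to 3437 CPM with intact Cnp and at 4125 to 5185 CPM with Cnp loss. The astrocyte markers lay at 1633 to 3884 CPM and at 1490 to 1819 CPM. The part of either in the NFOL values was not tested. In OPC the levels were 3.10 and 2.85 CPM in WT (2 and 1 UMIs), 26.5 and 30.7 CPM in 5xFAD, 12.6 and 14.7 CPM in Cnp-/- and 30.9 and 9.65 CPM in Cnp-/- 5xFAD. The OPC estimates were 1.87 with 5xFAD (SE 0.48, edgeR adjusted p = 0.81) and 0.83 with Cnp loss (edgeR adjusted p = 1). Without the filter on low counts edgeR called C4b in OPC with 5xFAD (1.88, adjusted p = 0.0316), where it called 0.549% of genes. It also called C4b in NFOL with Cnp loss (1.1, adjusted p = 0.0439), where it called 1.76% of genes.

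The microglial class held 222 C4b UMIs, of which 70 (31.5%) lay in the 181 nuclei absent from the microglia table and 36 in macrophages. Of the 116 C4b UMIs in the microglia table without macrophages, MyTE held 108 (124 CPM pooled), against 4 in homeostatic microglia (3.24 CPM), 3 in amyloid-DAM (3.43 CPM) and 1 in myelin-DAM (3.13 CPM). The same MyTE nuclei carried 6837 to 9328 CPM of the MOL markers, and the part of oligodendrocyte RNA in their C4b was not tested. In macrophages C4b was at 87.2 CPM pooled, at 159 and 224 CPM in WT, 52.3 and 91.5 CPM in 5xFAD, 55.9 and 85.3 CPM in Cnp-/- 5xFAD and 0 in both Cnp-/- libraries. The Cnp-/- macrophages were 10 and 12 nuclei, and 0 counts over both libraries allow up to 79.4 CPM, which is below both WT values and above 1 library of 5xFAD and 1 of Cnp-/- 5xFAD. Macrophages were not tested between genotypes. For microglia without macrophages the log2 fold change with Cnp loss was 2.62 (SE 0.65, edgeR adjusted p = 0.0915), against 0.68 with the whole microglial class and 4.36 without WT replicate 1 (edgeR adjusted p = 0.526 and 0.244). Without the filter on low counts edgeR called it (2.63, adjusted p = 0.0191), where it called 1.95% of genes. The MOL markers in microglia without macrophages lay at 1019 to 1843 CPM with intact Cnp and at 1991 to 3976 CPM with Cnp loss. Their part in these values was not tested.

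Masp1 in MOL was also higher with Cnp loss. It lay at 8.63 and 3.17 CPM in WT, 19.4 and 11.2 CPM in 5xFAD, 57.9 and 67.1 CPM in Cnp-/-, and 37.2 and 64.6 CPM in Cnp-/- 5xFAD. All 4 libraries with Cnp loss lay above the 4 with intact Cnp. As for C4b, the share of MOL genes that separate in this way was not computed. The log2 fold change with Cnp loss was 2.60 (SE 0.42, adjusted p = 0.0431 in edgeR's quasi-likelihood test). This call held in 4 of 12 alternatives, with adjusted p-values from 4.9e-06 to 0.178, and was lost when any library other than Cnp-/- replicate 1 was left out. The OPC markers in MOL, given above, overlapped between these libraries. With 5xFAD the estimate was 0.50 (edgeR adjusted p = 1), and 5xFAD differed from WT by 1.34 (edgeR adjusted p = 1). A Masp1 UMI was found in 0.918 ± 0.661% of WT MOL (SD, n = 2 libraries), 2.38 ± 0.798% of 5xFAD, 6.93 ± 0.679% of Cnp-/- and 6.06 ± 1.07% of Cnp-/- 5xFAD MOL.

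In the other classes outside microglia no Masp1 difference was called. OPC held 29.0 to 58.4 CPM over the 8 libraries, with estimates of −0.08 for Cnp loss (SE 0.23, edgeR adjusted p = 1) and −0.07 for 5xFAD. Astrocytes held 29.9 to 38.1 CPM, with −0.07 for Cnp loss (SE 0.15) and −0.16 for 5xFAD. NFOL held 21.4 to 53.5 CPM, with 0.61 for Cnp loss (SE 0.36, edgeR adjusted p = 0.505). Neurons held 5.26 to 7.90 CPM, yet they carried 75.1% of all Masp1 UMIs, below their 92.6% of the UMIs of all genes. Among the neuron clusters of the deposited table, cluster 8 held 26.1 CPM, 19.6 to 30.2 CPM per library, against a pooled neuronal level of 6.74 CPM. Cluster 40 held 43.4 CPM pooled from 88 UMIs, at 46.9 to 55.5 CPM in both WT libraries and Cnp-/- replicate 2. In Cnp-/- replicate 1 it gave 17.9 CPM from 1 UMI in 17 nuclei. The 4 libraries with 5xFAD, with 3 to 24 nuclei in it, gave 0 or 1 UMI each. The 1 UMI, in Cnp-/- 5xFAD replicate 1, made 15.5 CPM.

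**Figure D3:**
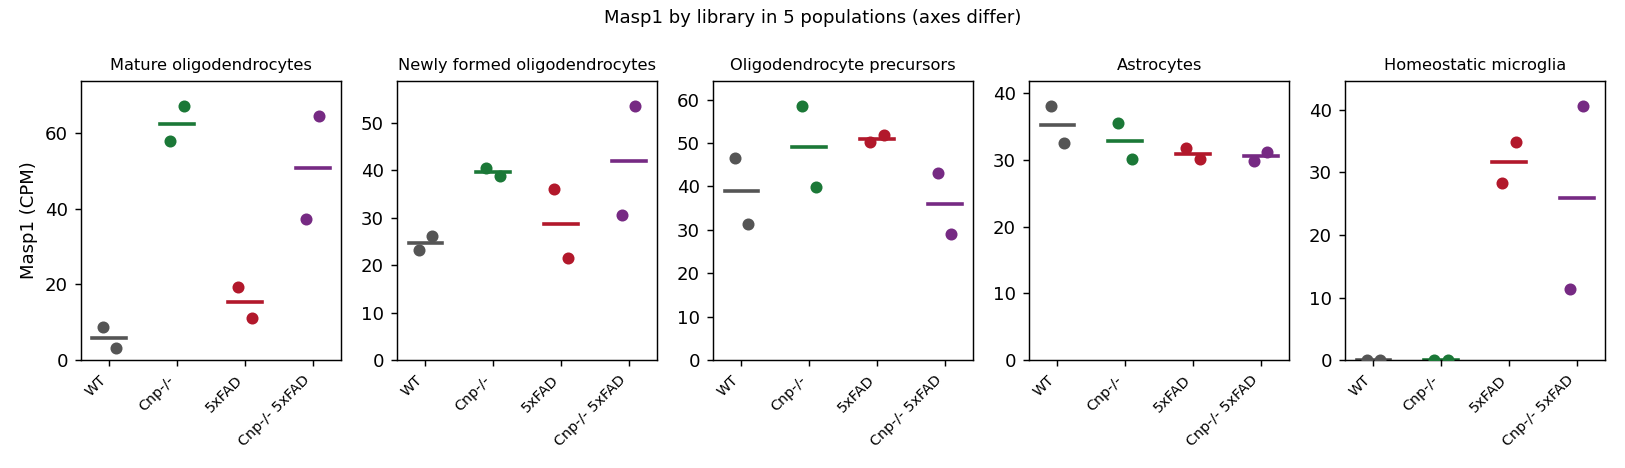
Masp1 level (CPM, linear axes that differ between panels) in MOL, NFOL, OPC, astrocytes and homeostatic microglia, with a point for each library and a line at the mean of each genotype. In MOL the libraries with Cnp loss (37.2 to 67.1 CPM) lie above those with intact Cnp (3.17 to 19.4 CPM), and in homeostatic microglia the libraries without 5xFAD lie at 0.

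In homeostatic microglia, Masp1 was read only in libraries with 5xFAD. Homeostatic microglia of the 4 libraries without 5xFAD gave 0 Masp1 UMIs in 373 nuclei, which allows a share of up to 0.804% of nuclei with a UMI and a level of up to 6.13 CPM over the group, counting error only. The median depth of homeostatic nuclei was 1160 UMIs, so that this does not limit the share of nuclei that express the gene. In the 4 libraries with 5xFAD, 21 of 609 homeostatic nuclei carried it, at 28.3 and 34.8 CPM in 5xFAD and 11.3 and 40.5 CPM in Cnp-/- 5xFAD. The pooled level was 28.2 CPM, against a floor of 3 counts (6.13 CPM) over the group without 5xFAD. Both values pool nuclei over libraries and leave out the spread between libraries, so no fold change is given. Masp1 did not pass the filter in homeostatic microglia, so this is a description. The OPC markers in these homeostatic nuclei were at 0 in 6 of the 8 libraries, and the astrocyte markers lay at 307 to 405 CPM with 5xFAD and at 354 to 508 CPM without it. Amyloid-DAM held 107 and 78.1 CPM in 5xFAD and 74.7 and 69.1 CPM in Cnp-/- 5xFAD. Myelin-DAM held 38.9 and 0 CPM in Cnp-/- and 20.7 and 17.7 CPM in Cnp-/- 5xFAD.

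For microglia taken as 1 class without macrophages, Masp1 was at 0 in both WT libraries, and Cnp-/- gave 66.0 and 10.6 CPM. The 5xFAD libraries held 60.4 and 47.9 CPM, and Cnp-/- 5xFAD held 32.7 and 38.6 CPM. The value of 66.0 CPM in Cnp-/- replicate 1 came with 135 CPM in its MyTE nuclei. The fitted log2 fold change with 5xFAD was 3.61 (SE 1.08, edgeR adjusted p = 0.257), with Cnp loss 3.28 (SE 1.13, edgeR adjusted p = 0.235), and the interaction was −7.75 (SE 2.10, edgeR adjusted p = 0.306). These fits depend on the prior count, since both WT libraries are at 0, and none passed the threshold. The 5xFAD estimate was 4.75 without MyTE (edgeR adjusted p = 0.145) and 2.09 with the whole microglial class (edgeR adjusted p = 0.338). Without the filter on low counts edgeR called 5xFAD (adjusted p = 0.0400) and the interaction (adjusted p = 0.0285), where it called 1.37% and 0.678% of genes.

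The C1q chains were microglial and did not pass the edgeR test in any class or contrast. In homeostatic microglia C1qa lay at 199 and 519 CPM in WT, 219 and 334 CPM in Cnp-/-, 202 and 244 CPM in 5xFAD, and 232 and 263 CPM in Cnp-/- 5xFAD. C1qb lay at 271 and 671 CPM in WT, 162 and 322 CPM in Cnp-/-, 267 and 342 CPM in 5xFAD, and 221 and 311 CPM in Cnp-/- 5xFAD. C1qc lay at 257 and 544 CPM in WT, 300 and 384 CPM in Cnp-/-, 178 and 284 CPM in 5xFAD, and 221 and 358 CPM in Cnp-/- 5xFAD. WT replicate 2, with 48 homeostatic nuclei, was the highest library for all 3 chains, and the other libraries overlapped. None of the 3 was called in homeostatic microglia with Cnp loss (smallest edgeR adjusted p = 0.977) or with 5xFAD (0.976), none had an unadjusted p under 0.05 and DESeq2 called none, against a background of 0.11% and 0.0657% of genes. The estimates with Cnp loss were −0.05 (SE 0.30) for C1qa, −0.54 (SE 0.32) for C1qb and 0.10 (SE 0.28) for C1qc.

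Over microglia without macrophages, the 5xFAD estimates were −0.36 for C1qa (SE 0.29), −0.45 for C1qb (SE 0.26) and −0.65 for C1qc (SE 0.26), with edgeR adjusted p-values of 0.777, 0.625 and 0.416. Of the 586 amyloid-DAM nuclei, whose pooled C1q level was below that of homeostatic microglia, 566 came from the libraries with 5xFAD. The part of this make-up in the estimates was not tested. Without WT replicate 2 the 5xFAD estimates were −0.02, −0.11 and −0.38, so that this library decided most of the size for C1qa and C1qb and less of it for C1qc. With Cnp loss the estimates were −0.33, −0.46 and −0.13, and C1qa was 0.00902 without WT replicate 2. Over the alternatives, the C1qb estimate with Cnp loss ran from −0.754 to −0.134.

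The subpopulations differed in C1q level. Homeostatic microglia held 250, 296 and 283 CPM of C1qa, C1qb and C1qc, myelin-DAM 210, 257 and 282 CPM, amyloid-DAM 175, 207 and 174 CPM, and MyTE 85.3, 116 and 114 CPM. Macrophages held the most, at 465, 557 and 509 CPM pooled. Within macrophages, WT replicate 2 reached 1541, 1466 and 1541 CPM from 19 nuclei. Myelin-DAM and amyloid-DAM were separated by the authors on the same counts, so that calls between them are partly fixed by the clustering. The fit set amyloid-DAM of the libraries with 5xFAD against myelin-DAM of the libraries with Cnp loss. The Cnp-/- 5xFAD libraries entered both groups without pairing, and the other libraries of each group differed in genotype. State and genotype are thus not separated, and the SEs and p-values ignore that pairing. Between the DAM states, 3.77% of 3052 genes were called in edgeR, and 4 members could be tested. None was called, 1 had an unadjusted p under 0.05 and DESeq2 called none, with all 4 estimates higher in myelin-DAM. C1qc was at 185 and 162 CPM in amyloid-DAM of 5xFAD and 104 and 256 CPM in that of Cnp-/- 5xFAD, against 350 and 382 CPM in myelin-DAM of Cnp-/- and 197 and 266 CPM in that of Cnp-/- 5xFAD. The groups overlapped, and the difference was 0.71 (SE 0.28, edgeR adjusted p = 0.221). C1qa (0.20, SE 0.30), C1qb (0.30, SE 0.22) and C3ar1 (0.30, SE 0.34) lay closer to 0.

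**Figure D4:**
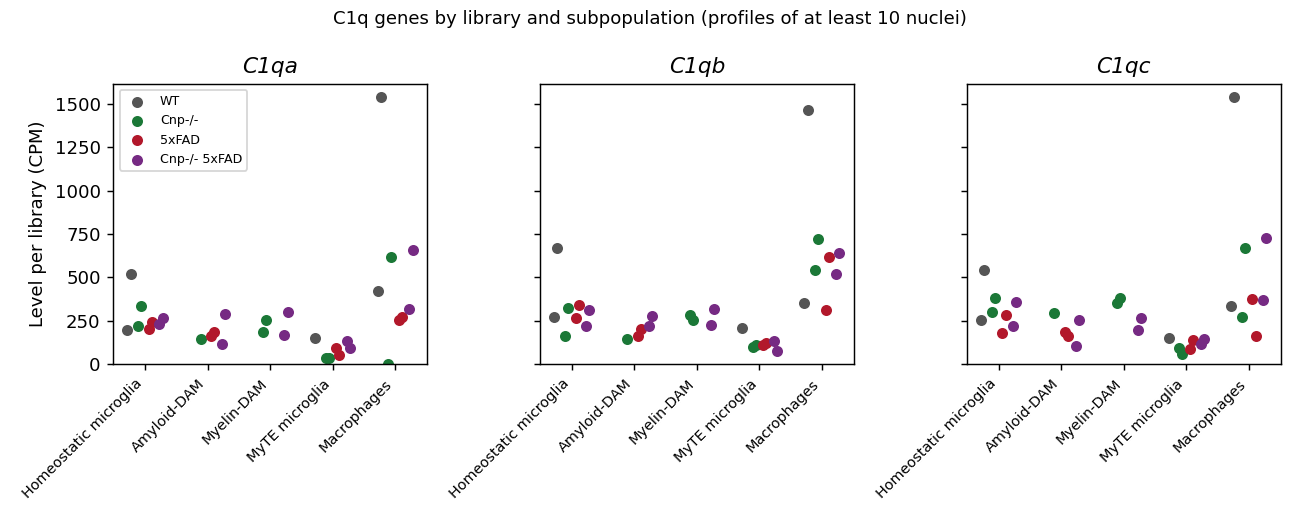
Level of C1qa, C1qb and C1qc (CPM) per library in the microglial subpopulations and macrophages, for profiles of at least 10 nuclei, with 1 point per library coloured by genotype. MyTE lies low per UMI, the genotypes overlap in homeostatic microglia, and WT replicate 2 stands highest in homeostatic microglia and in macrophages.

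The 3 chains of C1q are assembled in equal numbers in the protein, and their UMIs stood in similar proportions in microglia, macrophages and neurons. C1qa, C1qb and C1qc made up 30.3, 35.6 and 34.1% of the C1q UMIs in microglia, 30.4, 36.4 and 33.2% in macrophages and 28.8, 37.4 and 33.8% in neurons. Microglia carried 52.7, 51.2 and 53.0% of the UMIs of the 3 chains. Neurons, with 92.6% of the UMIs of all genes, carried 36.9, 39.6 and 38.7%, at about 1 CPM (1.07, 1.39 and 1.26 CPM).

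Most of the neuronal C1q came from 3 neuron clusters. Clusters 0, 13 and 25 of the deposited table, chosen after their values were seen, held 9414 nuclei, which is 20.9% of neurons and 41.5% of neuronal UMIs, and carried 90.6% of the neuronal C1q UMIs. Their median depth was 19116 UMIs, against 8040 in the other neurons. They also carried 87.0% of neuronal C4b and 83.7% of neuronal C5ar1, but 50.2% of neuronal Masp1, close to their share of UMIs. In the same clusters, 48.9% of nuclei held both an excitatory (Slc17a7) and an inhibitory (Gad1 or Gad2) UMI, against 2.43% elsewhere. By cluster, that share was 58.6% in cluster 0, 22.8% in cluster 13 and 23.3% in cluster 25. Cluster 0 carried 44.4% of neuronal C1q UMIs at 35.1% of all neuronal UMIs. Cluster 13 carried 24.8% at 4.06%, and cluster 25 carried 21.4% at 2.30%. Over the 3 clusters together, the summed markers of microglia were at 99.4 CPM, against 53.7 CPM in the other neurons. Those of MOL were at 412 against 90.9 CPM and those of astrocytes at 445 against 195 CPM. The part of mixed nuclei in the neuronal complement values was not tested. The clusters were uneven between libraries, with 717 of the 864 nuclei of cluster 25 from WT replicate 2. In neurons as a class, C1qa was estimated at −1.45 with 5xFAD (edgeR adjusted p = 0.28) and C4b at 1.22 with Cnp loss (SE 0.31, edgeR adjusted p = 0.474). DESeq2 gave adjusted p-values of 0.0252 and 0.0335 for these, where it called 2.34% and 0.839% of all neuronal genes.

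**Figure D5:**
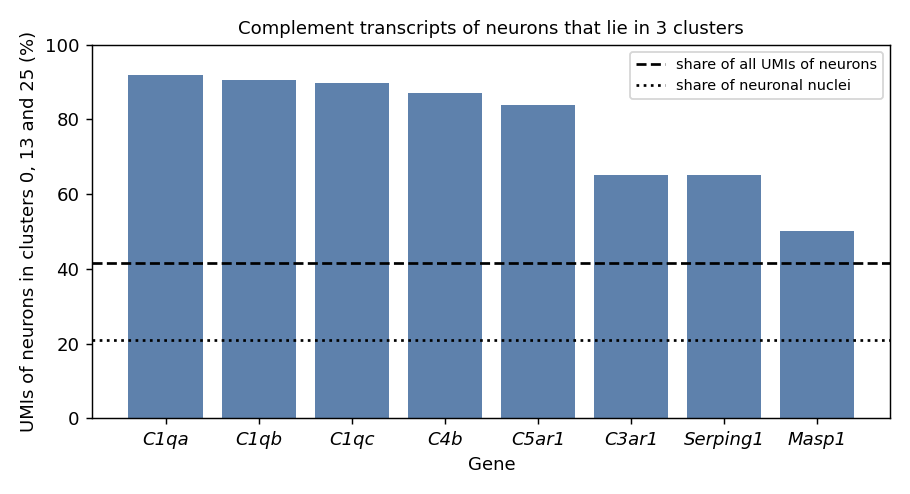
Share (%) of the neuronal UMIs of each complement gene that lies in neuron clusters 0, 13 and 25, as bars, with lines at the share of all neuronal UMIs (41.5%, dashed) and of neuronal nuclei (20.9%, dotted). Bars run from 91.9% for C1qa to 50.2% for Masp1, all above both lines.

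The anaphylatoxin receptors were highest per UMI in microglia and showed no called difference. Neurons, with 92.6% of the UMIs of all genes, held 61.4% of C3ar1 UMIs and 47.3% of C5ar1 UMIs, against 35.1% and 46.2% in microglia. C3ar1, the receptor of C3a, lay at 41.0 and 22.7 CPM in WT, 59.0 and 80.5 CPM in 5xFAD, 66.0 and 84.9 CPM in Cnp-/-, and 68.3 and 81.2 CPM in Cnp-/- 5xFAD, in microglia without macrophages. Both WT libraries lay below the other 6, and the estimates were 0.62 with Cnp loss (SE 0.31, edgeR adjusted p = 0.456) and 0.49 with 5xFAD (SE 0.31, edgeR adjusted p = 0.683). WT replicate 2 had 51 of these nuclei with 88299 UMIs in all, so that its 22.7 CPM rests on few counts. How many microglial genes place WT below the rest was not computed. With the whole microglial class the Cnp estimate was 0.25 (edgeR adjusted p = 0.764). WT microglia held 1 amyloid-DAM and 1 myelin-DAM nucleus, so that the make-up of the class differed between WT and the mutants. The part of this in the C3ar1 values was not tested. In homeostatic microglia alone, C3ar1 ran from 24.8 to 92.8 CPM over the libraries. By subpopulation C3ar1 was at 131 CPM in myelin-DAM, 104 CPM in amyloid-DAM, 50.3 CPM in homeostatic microglia and 31.1 CPM in MyTE, with 143 CPM in macrophages. C5ar1, the receptor of C5a, lay at 28.7 and 68.0 CPM in WT, 46.1 and 47.9 CPM in 5xFAD, 35.4 and 37.1 CPM in Cnp-/-, and 27.0 and 42.6 CPM in Cnp-/- 5xFAD. The genotypes overlapped, and the estimates were −0.32 with Cnp loss (SE 0.41, edgeR adjusted p = 0.825) and 0.02 with 5xFAD (SE 0.40, edgeR adjusted p = 0.998). A UMI of C3ar1 was found in 10.5% of microglial nuclei and 1 of C5ar1 in 6.23%, so that the depth per nucleus limits both.

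Serping1, the inhibitor, had 746 UMIs in all, 81.8% of them in neurons at 1.09 CPM. Neurons held 92.6% of the UMIs of all genes. In endothelial cells (56 UMIs) Serping1 lay at 4.54 and 15.5 CPM in WT, 11.6 and 4.28 CPM in Cnp-/-, 4.72 and 7.07 CPM in 5xFAD, and 4.31 and 4.62 CPM in Cnp-/- 5xFAD. The genotypes overlapped, with estimates of −0.33 for Cnp loss (SE 0.58, edgeR adjusted p = 0.947) and −0.72 for 5xFAD (SE 0.58, edgeR adjusted p = 0.917). Of 40 endothelial nuclei with Serping1, 18 also carried a UMI of a fibroblast marker, which is 45% against 13.2% of the other endothelial nuclei. None of the 9 pericyte nuclei with Serping1 carried one (23.9% of the others did), in astrocytes the shares were 9.62% and 8.87%, and in neurons 26.9% and 6.13%. The part of fibroblast RNA was not tested. C3, the convergence point of the cascade, had 16 UMIs in astrocytes (1.14 CPM) and 16 in neurons. In astrocytes 13 of them lay in libraries with Cnp loss and 3 in those with intact Cnp. In neurons 1 lay with Cnp loss and 15 with intact Cnp. Of these 15, 9 came from WT, at 0.0140 CPM in 1 library and 0.113 CPM in the other. C3 passed the filter on low counts in no class, so that no difference between genotypes was tested.

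Of 50 other complement genes, regulators, receptors and CUB and sushi domain proteins included, few passed the threshold. With Cnp loss, 1 of 8 tested in MOL was higher (0.765% of all genes called), 2 of 12 in microglia were higher and 1 lower (1.59% of all genes called), and none was called in the other 5 classes. With 5xFAD and for the interaction edgeR called none of them. The MOL gene was Csmd2, a membrane protein with complement control domains, at 224 and 79.3 CPM in WT, 119 and 87.3 CPM in 5xFAD, 470 and 502 CPM in Cnp-/-, and 488 and 436 CPM in Cnp-/- 5xFAD. It rose by 1.98 on the log2 scale (SE 0.29, edgeR adjusted p = 0.0326), a call kept in 6 of 12 alternatives. In microglia Csmd3, of the same family, lay at 6335 and 6082 CPM in WT, 4109 and 4042 CPM in 5xFAD, 2441 and 2849 CPM in Cnp-/-, and 2994 and 3580 CPM in Cnp-/- 5xFAD. With Cnp loss it fell by 0.74 on the log2 scale (SE 0.09, edgeR adjusted p = 0.0052), a call kept in 14 of 14 alternatives. In homeostatic microglia alone the estimate was −0.31 (SE 0.07, edgeR adjusted p = 0.381), and none of 5 such genes was called there with Cnp loss, 1 of them having an unadjusted p under 0.05. The make-up of microglia also differed, with 235 of 248 myelin-DAM nuclei from the libraries with Cnp loss. Between the DAM states, where 1 of 6 tested was higher and 1 lower in myelin-DAM, Csmd3 differed by −1.79 (SE 0.15) and Colec12 by 2.36 (SE 0.37), given as a description of states that were found from these counts. The Cnp-/- 5xFAD libraries stood in both states of this fit without pairing. Colec12, a scavenger receptor with a collectin domain, lay at 8.19 and 11.3 CPM in WT, 46.1 and 21.8 CPM in 5xFAD, 134 and 111 CPM in Cnp-/-, and 131 and 91.4 CPM in Cnp-/- 5xFAD. It was higher in microglia with Cnp loss by 2.73 (SE 0.39, edgeR adjusted p = 0.0118), kept in 12 of 14 alternatives, over that same uneven make-up. In homeostatic microglia Colec12 had 0 to 2 UMIs per library and was not tested. In microglia without macrophages Csmd2 was higher by 3.97 (SE 0.72, edgeR adjusted p = 0.0280), kept in 7 of 13, with all 117 Csmd2 UMIs in MyTE nuclei, which carry the MOL markers named above. With the whole microglial class of the annotation, macrophages included, neither Colec12 nor Csmd2 was called (edgeR adjusted p = 0.52 and 0.208).

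The genes whose level was most like each member over 63 class-by-library profiles and 20840 genes were named by Pearson r as a description, the profiles of a library sharing its depth. C1qb was followed most closely by Fcer1g (r = 0.91), C1qc (0.90) and Abca9 (0.89), and C1qa by Fcrls (0.91). C3ar1 was followed by Csf2rb (0.95) and Slc2a5 (0.95), and C5ar1 by Phf11b (0.94). C4b was followed by Padi2 and Cdh19 (0.82 each) and St3gal4 (0.80), and Masp1 by Diaph3 (0.86) and Pcdh11x (0.84). Serping1 had no gene above 0.68 (Gm31409).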

How the data were processed

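The 8 single-nucleus RNA-seq libraries (10x Genomics 3′ chemistry) of mouse brain hemispheres were processed by the authors with Cell Ranger 6.1.2 against mm10, per the labels, and ambient transcripts were removed with CellBender, which can lower the counts of a gene in classes that do not express it. The authors then filtered nuclei by detected genes and UMIs and removed clusters of undefined identity. Whether intronic reads were counted and how doublets were treated is not given in the sources used here. The authors deposited 2 tables of UMI counts after this ambient removal, not scaled to depth, 1 of all nuclei and 1 of the microglia, with cell class, subpopulation and cluster of each nucleus, and 181 microglial nuclei are absent from the microglia table. Counts were summed per library and class (at least 20 nuclei per profile), and microglia were tested from the microglia table without macrophages. Each class was fitted in edgeR 4.0.16 (R 4.3.3) with TMM scaling, filterByExpr and the quasi-likelihood test (two-sided), with Benjamini-Hochberg adjustment over all genes tested in that class and a threshold of 0.05. Contrasts were Cnp loss and 5xFAD, each a mean over the other factor, and their interaction. SEs were the log2 fold change divided by the square root of F. Shares of nuclei with a UMI were also computed after thinning to 500 UMIs. Intervals and floors (3 counts) cover counting error only, at 95% confidence. DESeq2 1.42.0 was an alternative, beside no filter, a replicate block and each library left out. On simulated counts of the MOL Cnp contrast (8761 genes), 56% of 200 changed genes were recovered. The members and the lists of other complement and marker genes were chosen with earlier results of these data known. Named genes were the 9 members, the other complement genes past the threshold in a class, and the genes most like each member.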

Additional observations from a re-analysis of the deposited data

Results flagged for a closer look

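Among 112 groups of 4 libraries checked for a library apart from the other 3, 8 had one, where chance alone gives about 1 in 20. WT replicate 2 accounted for 5 of them. It held 498.3 CPM of C1qa in microglia without macrophages, against 160 to 193 CPM in the other 3 libraries with intact Cnp, and 645.5 CPM of C1qb, against 186 to 258 CPM. In neurons it held 2.253 CPM of C1qa (0.802 to 0.949 CPM in the others) and 2.919 CPM of C1qb (0.954 to 1.27 CPM), and it was lowest for C3ar1 at 0.5384 CPM (0.896 to 0.954 CPM). Cnp-/- replicate 1 held 66.03 CPM of Masp1 in microglia, against 0 to 10.6 CPM in the other libraries without 5xFAD, and 11.55 CPM of Serping1 in endothelial cells, against 4.28 to 4.62 CPM in the others with Cnp loss. 5xFAD replicate 2 held 7.066 CPM of Serping1 in endothelial cells, against 4.31 to 4.72 CPM in the others with 5xFAD.

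Every gene-by-class pair that was tested was searched for opposite moves between backgrounds. The number that chance alone gives and the share over all genes were not computed. In microglia, Masp1 was higher with Cnp loss without 5xFAD (mean 38.32 CPM in Cnp-/-, from 66.0 and 10.6 CPM, and 0 in WT). It was lower with Cnp loss on the 5xFAD background, with each library moving in the direction of its group. The interaction did not pass the threshold (edgeR adjusted p = 0.306). C5ar1 in neurons likewise moved in opposite directions, for Cnp loss by 5xFAD background (mean 0.3841 CPM in Cnp-/-) and for 5xFAD by Cnp background (mean 0.6146 CPM in 5xFAD), with an interaction of −2.06 (edgeR adjusted p = 0.965).

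Of the 181 microglial nuclei that are absent from the microglia table, the 154 from libraries other than WT held 67 C4b UMIs, at 87.66 CPM, against 3 UMIs and 26.95 CPM in the 27 from WT. The MOL markers of these nuclei lay at 785 and 1779 CPM in the WT libraries and at 2223 to 5322 CPM in the others. The macrophage markers lay at 1029 and 4134 CPM in WT and at 183 to 399 CPM in the others. The part of either in the C4b values was not tested. All 181 together held 31.5% of the 222 C4b UMIs of the microglial class.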

How the results depend on the processing

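Of 426 recomputed values under the alternatives, counts of members as well as single gene results, 363 were the same. A single gene result was the same if it kept direction and side of the threshold. A count was the same if it was equal or within the allowed spread, counts of 0 that stayed 0 included. Among single gene results 33 fell below the threshold, 15 rose past it and 1 reversed. The reversed result was C1qa in microglia with Cnp loss (−0.64 to 0.00902 with each library left out, the latter without WT replicate 2). A further 14 values, all counts, moved by more than the allowed spread. The count of members called with Cnp loss (2) was 5 without the filter on low counts, 4 in DESeq2, 1 with the replicate number as a block, and 1 to 2 with each library left out. With 5xFAD the count of 0 became 3 without the filter and 2 in DESeq2, and for the interaction 3 and 1. Over the 7 classes the share of all genes called with Cnp loss was 0.41% as reported, 1.45% without the filter, 1.33% in DESeq2 and 0.215% with the block, with 5xFAD 0.0407%, 0.618% and 0.828% for the first 3, and for the interaction 0.00509%, 0.614% and 0.228%. Leaving out each library gave 0 throughout for these and for the counts in homeostatic microglia and DAM. The cause of these differences was not tested. C4b in microglia without MyTE fell below the filter and gave no value. The 42 correlations of same-numbered deviations ranged from −0.20 to 0.19. They cannot tell whether libraries of the same replicate number share a batch, which the labels do not state. Depth limits C3, Serping1 and the receptors, and in simulated MOL counts 10.4% of 2-fold changes were recovered.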
